A study of Homo sapiens with 12 samples.

Results

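Circular RNAs (circRNAs) arise when the 5′ splice donor at the end of a downstream exon is joined back to the 3′ splice acceptor of an upstream exon, so that 1 or more exons close into a loop without free ends. Such loops are counted by the reads that cross the back-splice junction, are generally made at a low rate beside the linear mRNA of their host gene, and are degraded slowly because exonucleases need an end. A host gene can give several loops that share exons, and its linear mRNA is a separate product that junction reads do not measure.

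The loops described here are those of 8 host genes, ITGA4, NF1, CBFB, HLA-DRB1, ASCC2, EZR, ATRNL1 and SNX25, taken as every entry of the deposited circRNA table under those gene names. They make up 31 of the 12538 circRNAs in the table, and 29 of them had a read, of 9526 circRNAs with a read in all. The hosts were chosen because 1 loop of each was among the lowest in hypoxia in these same libraries, so the difference between hypoxia and normoxia is given for these loops as a description, and no test of it on these loops carries weight. For each host, the loop with the lowest average change among its loops that passed a read filter is called its lowest loop. All 8 lowest loops were among the 244 circRNAs that passed the filter (5 or more reads in 3 or more of the 12 libraries), whereas none of the 23 other loops of the 8 hosts did. Each lowest loop is thus the only loop of its host with a fitted change, and loops were not ranked within a host. For 6 of the hosts the lowest loop had no read in hypoxia. The name lost loop does not hold for the other two, since the lowest loop of ATRNL1 kept 3 hypoxia reads and that of SNX25 kept 7.

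The study measured circRNAs in T98G and LN229, cell lines long established from human glioblastomas. Both were grown in normoxia (95% air and 5% CO2) or in hypoxia (1% O2 and 5% CO2), with 3 libraries in each of the 4 groups, and no genetic change is named for any group. Each line is a single culture-adapted tumour line, and the labels do not say whether libraries of 1 group came from separate cultures. Libraries held 4298 to 7608 junction reads, so a loop with a share of 0.0394% to 0.0698% or less could be missed, the limits that a count of 0 allows (3 counts).

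Some libraries stood apart from their labelled group. Across the tested circRNAs, the third LN229 normoxia library correlated with the first and second at r = 0.0711 and 0.0808 (log2 CPM), and with the T98G hypoxia libraries at 0.730 to 0.786. The third T98G normoxia library correlated at 0.390 and 0.425 with the other two of its group and at 0.613 to 0.634 with T98G hypoxia. The third LN229 hypoxia library correlated at 0.323 and 0.684 with the others of its group and at 0.482 and 0.439 with the first and second LN229 normoxia libraries. Folds of the lowest loops and the summed share of the other loops are therefore also given without the normoxia libraries numbered 3, and, chosen after the data were seen, without the third LN229 hypoxia library. As hosts, EGFR, GFAP, SOX2, NES and OLIG2, genes commonly used to mark glioblastoma and neural cells, had no junction read, and the glioblastoma and neural list had reads for 2 of 12 genes, VCAN (24 in normoxia and 36 in hypoxia) and CD44. Junction reads report only genes that form loops, so this check does not speak to the linear mRNA of those genes.

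The junctions of the lowest loops are shown first, because a junction is what defines each loop. The table gives positions on hg19. Exons were identified in the GENCODE annotation of GRCh38 by a run of exons with the same genomic span and spliced length. Some ATRNL1 loops were matched by spliced length alone, and no position was converted. In the sequences below the last 30 bases of the donor exon are in lower case and the first 30 bases of the acceptor exon are in capitals, 5′ to 3′ on the transcript's strand.
ITGA4 exons 10 to 3: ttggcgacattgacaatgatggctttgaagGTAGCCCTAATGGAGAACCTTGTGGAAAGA
NF1 exons 29 to 14: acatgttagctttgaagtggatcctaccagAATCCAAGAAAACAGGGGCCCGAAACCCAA
ASCC2 exons 8 to 6: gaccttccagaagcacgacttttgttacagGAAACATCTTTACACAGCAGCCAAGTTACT
ATRNL1 exons 5 to 2: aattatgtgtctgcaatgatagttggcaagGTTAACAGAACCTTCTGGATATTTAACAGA

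The ITGA4 loop spans chr2:182339687-182350719 on the plus strand, is annotated as exonic with a spliced length of 834 nt, and matched exons 3 to 10 of 28. The NF1 loop spans chr17:29546023-29563039 on the plus strand and holds 16 exons, 14 to 29 of 57, in 2447 nt. The ASCC2 loop, at chr22:30209419-30212062 on the minus strand, holds exons 6 to 8 of 20 in 292 nt. The ATRNL1 loop, at chr10:116879949-116889297 on the plus strand, holds exons 2 to 5 of 29 in 536 nt and was matched by spliced length alone, since its span is 9349 bases in the table and 9351 in GRCh38. The SNX25 loop, at chr4:186168448-186188309 on the plus strand, holds exons 2 to 5 of 19 in 662 nt. Of these 5 exonic loops, the ITGA4 loop alone has a spliced length divisible by 3.

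The other 3 lowest loops are annotated as sense overlapping, a class whose ends need not both be exon ends of the named host. The CBFB loop spans chr16:67132613-67159945 on the plus strand, 27333 bases. Within 300000 bases of CBFB, its span matched 1 pair of annotated exon ends. These are the start of exon 6 of 6 of CBFB and the end of exon 4 of 17 of C16orf70, the downstream gene, so a junction there would join exons of 2 genes. The HLA-DRB1 loop spans chr6:32487147-32548633 on the minus strand, 61487 bases. The 1 pair of exon ends with that span was exon 3 of 6 of HLA-DRB5 as the donor and exon 4 of 6 of HLA-DRB1 as the acceptor. HLA-DRB5 and HLA-DRB1 are near-identical paralogs, and the junction is shown because it can hardly be told from their linear transcripts.
HLA-DRB5 exon 3 to HLA-DRB1 exon 4: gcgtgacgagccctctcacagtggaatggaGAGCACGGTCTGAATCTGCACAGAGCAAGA
Of its 60 bases, 59 were identical to the linear junction of HLA-DRB1 and 59 to that of HLA-DRB5. Reads of this loop are therefore uncertain, and no source used here says how the counting treated paralogs. None of the 7 junctions with identified exons occurred exactly in a linear GENCODE transcript. The EZR loop spans chr6:159186767-159204698 on the minus strand, 17932 bases, and no pair of exon ends near EZR had its span.

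The table marks each circRNA by whether it is listed in circBase or in a cited publication. All 6 lowest loops with no hypoxia read are unlisted, and they are split evenly between the exonic and the sense overlapping class (3 of each). The lowest loops of ATRNL1 (hsa_circ_0020093) and SNX25 (hsa_circ_0004874) are listed in circBase. Of the 244 tested circRNAs, 16 (6.56%) are unlisted and 18 (7.38%) are sense overlapping. The 10 unlisted tested circRNAs of other hosts had averaged log2 fold changes of -0.86 to 2.83 with a median of 0.48, 2 below 0 and 8 above, beside a median of 0.04 over all tested. Of the 23 other loops of the 8 hosts, 18 are listed in circBase and 19 are exonic.

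ITGA4 encodes the alpha4 integrin subunit, a cell-surface receptor chain that pairs with beta1 or beta7 integrin and binds VCAM-1 and fibronectin. Its only loop in the table had 27, 26 and 0 reads in the normoxia libraries of LN229 (replicates 1, 2 and 3) and 40, 34 and 11 in those of T98G. It had 0 reads in each of the 6 hypoxia libraries. In T98G all normoxia libraries lay above all hypoxia libraries, whereas in LN229 the third normoxia library was as empty as the hypoxia libraries. The loop made up 0.477% of junction reads in the first LN229 normoxia library (95% Wilson interval 0.328 to 0.693) and 0.791% in the second T98G normoxia library (0.567 to 1.10). Hypoxia counts of 0 allow shares of up to 0.0435% to 0.0541%. Intervals and limits cover counting error only. Scaled to library size, the loop averaged 3071 ± 2670 CPM in LN229 normoxia and 5178 ± 3036 CPM in T98G normoxia (SD, n = 3). With a floor of 3 counts over the 6 hypoxia libraries, it was at least 46.1-fold lower in hypoxia, and at least 67.7-fold lower without the third normoxia library of each line. These CPM are relative to all junction reads in bulk RNA, so fewer cells with the loop and fewer loops per cell cannot be told apart.

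NF1 encodes neurofibromin, a GTPase-activating protein that switches off Ras and is a tumour suppressor in glioblastoma. In normoxia its lowest loop had 13, 19 and 0 reads in LN229 and 13, 10 and 9 in T98G, and in hypoxia 0 in every library. In T98G the third normoxia library lay close to the others. It was at least 21.4-fold lower in hypoxia, or at least 29.3-fold without replicate 3 of normoxia in each line.

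CBFB encodes the subunit of core-binding factor that does not contact DNA and stabilises RUNX proteins on it. In normoxia its lowest loop had 15, 10 and 0 reads in LN229 and 11, 15 and 3 in T98G, and in hypoxia 0 in every library. It was at least 18.1-fold lower in hypoxia, or 27.2-fold without normoxia replicates 3. HLA-DRB1 encodes the beta chain of HLA-DR, which presents peptides to CD4+ T cells. The loop under its name had 10, 7 and 0 normoxia reads in LN229, 14, 7 and 3 in T98G, and 0 hypoxia reads, at least 13.7-fold lower (20.3-fold without normoxia replicates 3). For both loops the third T98G library held fewer reads than either of the others of its group.

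ASCC2 encodes a ubiquitin-binding subunit of the activating signal cointegrator complex, which acts in repair of alkylated DNA and in rescue of collided ribosomes. Its lowest loop had 7, 5 and 0 normoxia reads in LN229, 7, 6 and 4 in T98G, and 0 hypoxia reads, at least 9.69-fold lower (13.3-fold without normoxia replicates 3). EZR encodes ezrin, which ties the actin cytoskeleton to membrane proteins. The lowest loop of this gene had 6, 3 and 0 normoxia reads in LN229, 10, 5 and 3 in T98G, and 0 hypoxia reads, at least 9.02-fold lower (12.8-fold without those replicates). These are the loops with the fewest reads of the 6, and their bounds are the lowest for that reason.

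ATRNL1 encodes attractin-like 1, a membrane protein related to attractin. In LN229 its lowest loop had 13, 10 and 1 normoxia reads and 1, 0 and 0 hypoxia reads. The T98G libraries held 7, 16 and 7 normoxia reads and 1, 0 and 1 hypoxia reads. The third LN229 normoxia library and the first LN229 hypoxia library held 1 read each, so the groups overlapped in LN229 and did not in T98G. The log2 fold change fitted for LN229 was -4.20 (SE 1.12) and that for T98G -3.71 (SE 1.00), and the ratio of pooled CPM, normoxia over hypoxia, was 18.1 with an exact 95% counting interval of 5.86 to 90.2. Without normoxia replicates 3 the ratio was 24.5 (7.88 to 123.3).

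SNX25 encodes a sorting nexin, a family of phosphoinositide-binding proteins of endosomes. In LN229 the lowest loop had 10, 3 and 1 normoxia reads and 1, 1 and 0 hypoxia reads. The T98G libraries held 10, 6 and 4 normoxia reads and 1, 2 and 2 hypoxia reads. This is the mildest of the 8 differences, with a log2 fold change of -2.65 (SE 1.04) for LN229 and -1.90 (SE 0.88) for T98G. The ratio of pooled CPM was 4.87 (2.13 to 13.0), and 6.63 without normoxia replicates 3. Without the third LN229 hypoxia library, in which the lowest loops had no read, the bounds of the 6 loops fell to between 7.54-fold (EZR) and 38.6-fold (ITGA4), and the ratios were 15.1 for ATRNL1 and 4.07 for SNX25.

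**Figure D1:**
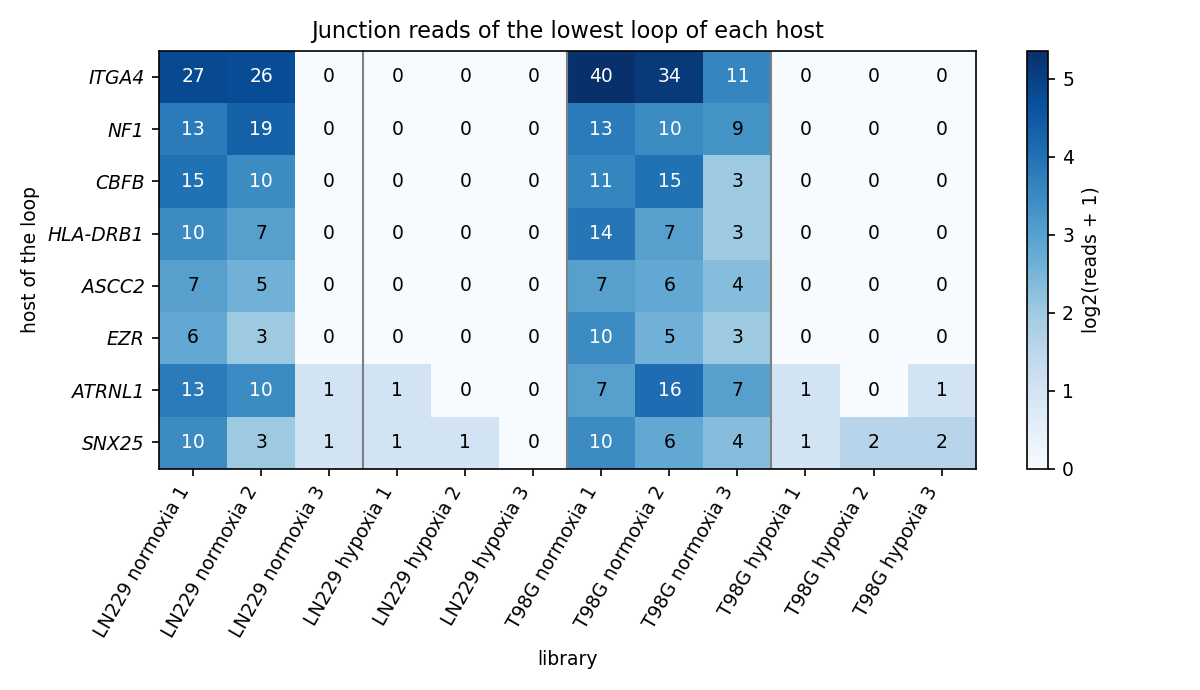
Junction reads of the lowest loop of each host (rows) in each of the 12 libraries (columns), with the read count printed in each cell and colour giving log2(reads + 1). Most reads lie in the first and second normoxia libraries of both lines and, in smaller number when summed over the loops, in the third of T98G. The third LN229 normoxia library holds 2 reads over all 8 loops, and the hypoxia libraries hold 10, all of ATRNL1 and SNX25.

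Summed, the 8 lowest loops had 441 reads in normoxia and 10 in hypoxia. In T98G all 3 normoxia libraries lay above all 3 hypoxia libraries (CPM) for 8 of the 8, where 19.3% of tested circRNAs did so, and in LN229 for 0 of the 8, where 4.1% did. In the fit averaged over both lines, 10 of 244 circRNAs (4.1%) were lower in hypoxia at the threshold of 0.05 after adjustment, and 7 of the 8 lowest loops are among them. Those members were chosen by this very comparison, so nothing is read from the count. SNX25, with the 11th lowest log2 fold change of the 244, is not among the 10. A call also depends on the SE, so the 10 called need not be the 10 lowest by fold change. The lowest tested circRNAs of other hosts were loops of UHRF2 (averaged log2 fold change -2.85, SE 0.78, 34 reads in normoxia and 4 in hypoxia), FAM126A (-2.54, SE 0.87, 36 and 8 reads) and ARHGAP35 (-2.50, SE 0.68, 43 and 8 reads). These lie between ATRNL1 and SNX25 on this scale, and each kept some reads in hypoxia. No tested circRNA of another host was without a read in hypoxia, so the 6 loops make up all of the 6 tested circRNAs (2.46%) with that property.

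**Figure D2:**
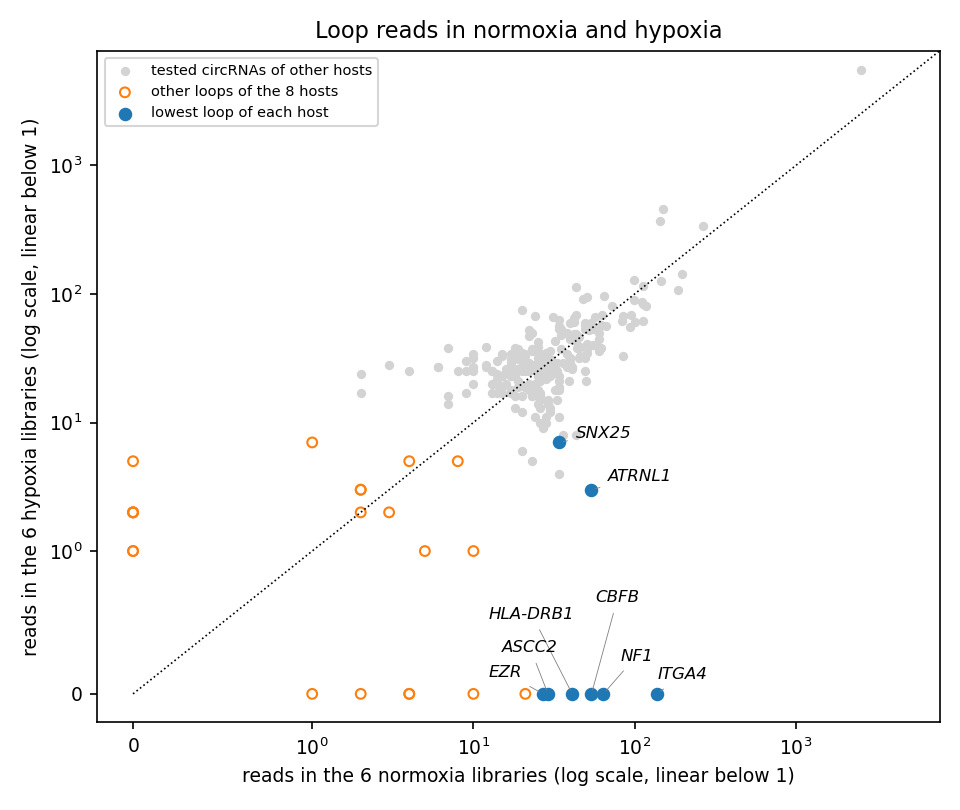
Reads summed over the 6 normoxia libraries (horizontal axis) and the 6 hypoxia libraries (vertical axis), on log scales that are linear below 1, with the dotted line at equal reads. Blue points are the lowest loops, 6 of which lie at 0 in hypoxia; open orange circles are the other loops of the same hosts, and grey points are tested circRNAs of other hosts.

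The other loops of each host were then set beside its lowest loop. NF1 had 8 other loops with a read, which together held 21 reads in normoxia and 17 in hypoxia, against 64 and 0 for the lowest loop. The most abundant of them, exons 2 to 8 at chr17:29483001-29509683 (hsa_circ_0042881), had 1, 3 and 1 normoxia reads and 0 hypoxia reads in LN229. In T98G it had 1, 1 and 1 normoxia reads and 2, 2 and 1 hypoxia reads. Its junction shares no exon with that of the lowest loop.
NF1 exons 8 to 2: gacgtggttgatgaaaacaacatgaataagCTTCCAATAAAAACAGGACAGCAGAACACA
A loop of exons 2 to 5 had 5 reads in normoxia and 1 in hypoxia. A loop of exons 16 to 20, which lie inside the lowest loop, had 5 reads, all in the third LN229 hypoxia library. NF1 exons within the lowest loop were therefore back-spliced in at least 1 hypoxia library in which the lowest loop had no read, and whether 5 reads of 1 library would recur was not tested. The remaining 5 NF1 loops with a read had 1 to 5 reads, and 2 further entries had none.

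CBFB had 3 other loops, all from its exons 3 to 5 and all listed in circBase, with 4 reads in normoxia and 9 in hypoxia together. The most abundant, 361 nt at chr16:67070542-67116242, had 4 reads in normoxia and 5 in hypoxia, 4 of them in the second T98G hypoxia library. Each of the other two had 2 reads, all in hypoxia. The lowest CBFB loop lies downstream of all 3 and shares no exon with them. ASCC2 had 1 other loop, exons 2 to 5, with 2 reads in normoxia and 2 in hypoxia. EZR had a loop of exons 2 to 7 with 3 reads in normoxia and 2 in hypoxia, and an unlisted sense overlapping loop with the same upper end as the lowest loop, 159204698, with 1 read in T98G normoxia. ITGA4 and HLA-DRB1 had no other loop in the table.

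ATRNL1 differed from these hosts, since its other loops also held nearly all of their reads in normoxia. They had 47 reads in normoxia and 4 in hypoxia. The loop of exons 2 to 7 (hsa_circ_0020094, 799 nt) had 5, 3 and 0 normoxia reads in LN229, 8, 2 and 3 in T98G, and none in hypoxia. That of exons 2 to 8 (1055 nt) had 3, 3 and 0 normoxia reads in LN229, 1, 2 and 1 in T98G, and 1 read in hypoxia. Exons 22 to 24, far downstream, gave a loop with 3, 1 and 0 normoxia reads in LN229, 1, 3 and 2 in T98G, and none in hypoxia. The first 2 of these were matched by spliced length alone, like the lowest loop. Their spans are 45457 and 51102 bases on hg19, and 45461 and 51108 in GRCh38. As matched, these 2 share the acceptor of exon 2 with the lowest loop and differ from it in the donor, as their junctions show.
ATRNL1 exons 7 to 2: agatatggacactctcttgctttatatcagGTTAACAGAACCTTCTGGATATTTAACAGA
ATRNL1 exons 8 to 2: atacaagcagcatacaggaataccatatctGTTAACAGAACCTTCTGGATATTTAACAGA
A loop of exons 21 to 24 had 4 reads, all in normoxia. Another loop with the exon 2 acceptor, 1239 nt, was the exception, with 2 reads in T98G normoxia and 3 in T98G hypoxia. The lowest loop made up 53.5% of the host's junction reads in normoxia and 42.9% of its 7 in hypoxia.

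**Figure D3:**
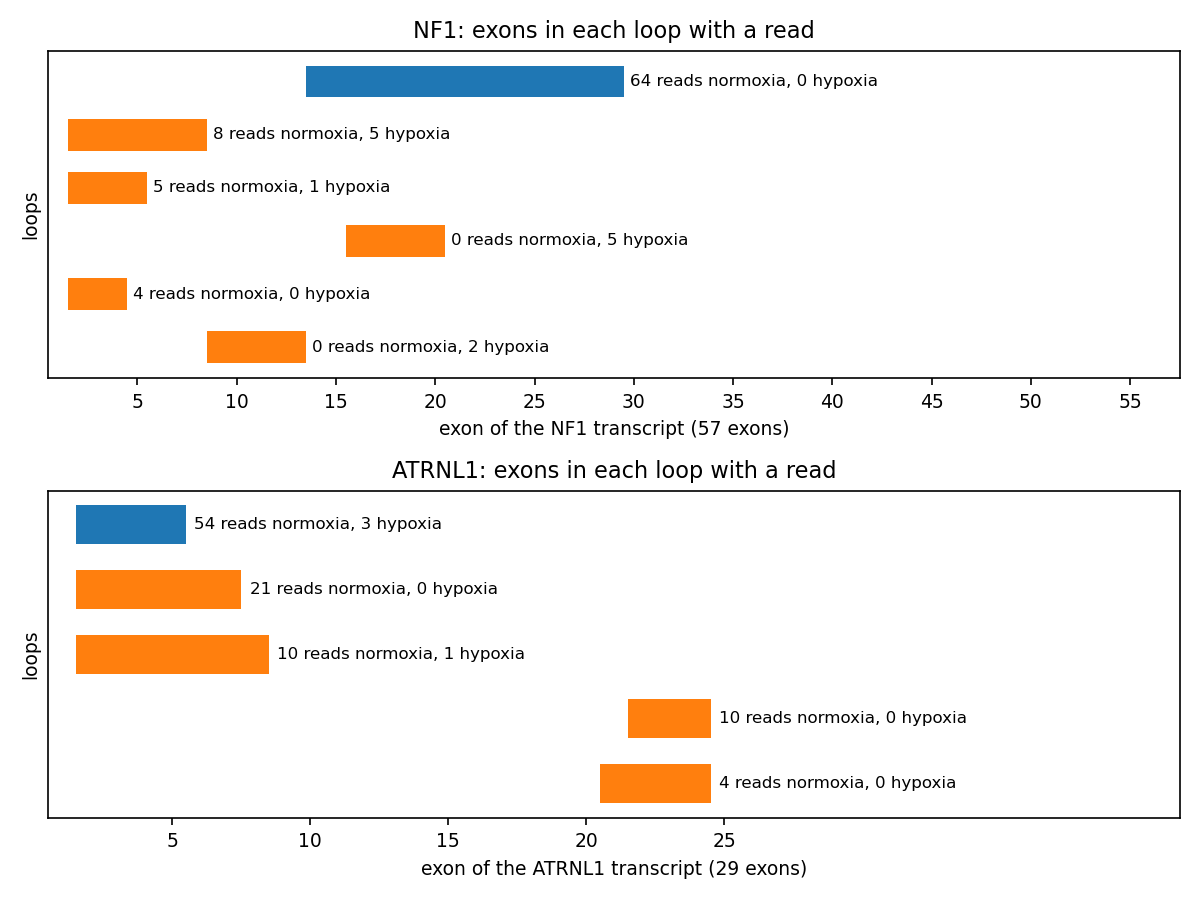
Exons held by each loop of NF1 (upper panel) and ATRNL1 (lower panel) with at least 1 read and a matched exon run, along the exon numbers of 1 transcript each, with the lowest loop in blue and the reads summed over 6 libraries per condition. The NF1 loop of 1 read that matched another transcript is not drawn. For NF1 the orange loops together hold reads in both conditions, and for ATRNL1 nearly all reads lie in normoxia.

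SNX25 gave the opposite picture. A loop of exons 2 to 6 (hsa_circ_0003237, 733 nt), which shares its start with the lowest loop and reaches 1 exon further, had 1 read in normoxia and 7 in hypoxia, 3 of them in the second LN229 hypoxia library and 2 each in the first and the third of T98G. A loop of exons 3 to 5, which shares its end, had 1 read in LN229 hypoxia. The lowest loop thus held 97.1% of the host's 35 reads in normoxia and 46.7% of 15 in hypoxia. At these counts a switch between the 2 loops of a host was not tested.

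Over the hosts together, the 23 other loops held 79 reads in normoxia and 42 in hypoxia, 65.3% in normoxia (exact 95% interval 56.1 to 73.7), where normoxia held 46.9% of all junction reads. This interval and the next cover counting error of the pooled reads only, and not the spread between libraries. Without the third normoxia library of each line the share was 60.4%, and without the third LN229 hypoxia library 69.3%. Leaving libraries out also changes the share of all junction reads, which was not recomputed. These shares can therefore not be set against the 46.9%, which is from all 12 libraries. In all 12 libraries, ATRNL1 accounted for the excess over the whole table. Without its other loops the reads were 32 and 38, or 45.7% in normoxia (33.7 to 58.1), an alternative chosen after the data were seen. The 8 lowest loops held 97.8% of their reads in normoxia, the measure they were chosen on.

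The lines were compared in normoxia, a contrast that the choice of hosts did not use. The 6 loops with no hypoxia read could pass the filter only through normoxia libraries, so the values compared are not free of the filter. All 8 lowest loops were fitted higher in T98G, with log2 differences (T98G minus LN229) from 0.03 (SE 0.78) for NF1 to 1.05 (SE 1.11) for EZR. ITGA4 had a difference of 0.76 (SE 0.78) and ATRNL1 of 0.41 (SE 0.70). None differed beyond the spread between libraries (adjusted p 0.985 to 0.988, edgeR's quasi-likelihood test), and of all tested circRNAs 0% passed after adjustment (0 of 244, by DESeq2 also 0), with 4 (1.64%) at an unadjusted p under 0.05, none of them a lowest loop. The direction of 5 of the 8 changed with single libraries. Without the third LN229 normoxia library the difference turned to -0.56 (SE 0.52) for NF1, -0.31 for CBFB, -0.066 for HLA-DRB1, -0.053 for ASCC2 and -0.14 for ATRNL1, while ITGA4, EZR and SNX25 stayed above 0 at 0.15, 0.42 and 0.06. Without the second T98G normoxia library it turned to -0.05 for NF1, -0.28 for CBFB and -0.27 for ATRNL1, and without the first to -0.11 for NF1 and -0.04 for HLA-DRB1. Without normoxia replicate 3 of both lines NF1 stood at -0.41 and EZR at 0.77, with the others between. With SEs from 0.70 (ATRNL1) to 1.11 (EZR), a difference between the lines of 2-fold was not detectable across these libraries. Without normoxia replicate 3 of both lines the SEs ran from 0.39 (ITGA4) to 0.99 (EZR), again with 0 calls.

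**Figure D4:**
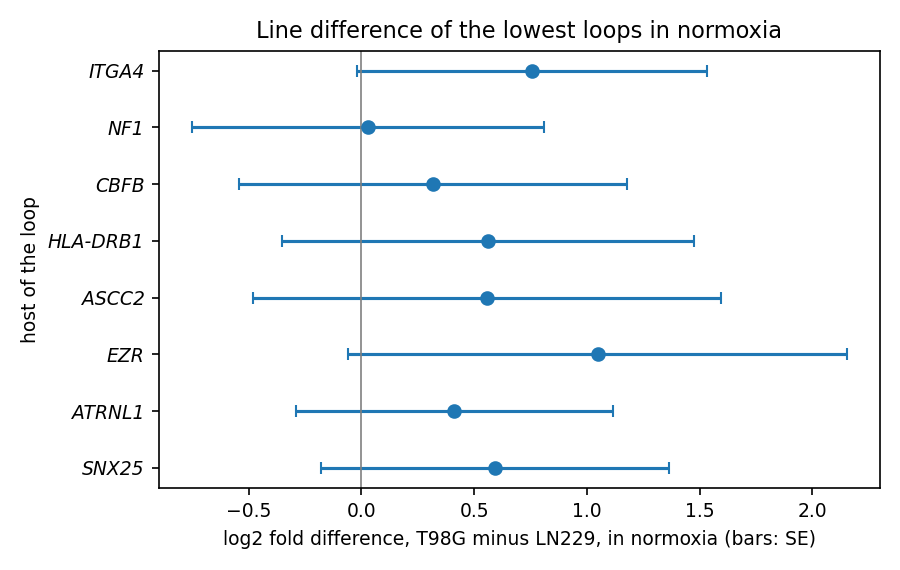
Log2 fold difference between the lines in normoxia (T98G minus LN229) for the lowest loop of each host, with points for the estimate over 3 libraries per line and bars for the standard error. All points lie above 0, from 0.03 to 1.05, and none passed the adjusted threshold.

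The difference between the lines in their response to hypoxia could be estimated for the 2 lowest loops that kept reads. It was 0.50 (SE 1.44, adjusted p 0.971) for ATRNL1 and 0.75 (SE 1.30, adjusted p 0.940) for SNX25 by edgeR's quasi-likelihood test, T98G minus LN229. Of all tested circRNAs 0% passed for this contrast (0 of 244, also 0 by DESeq2), with 19 (7.79%) at an unadjusted p under 0.05. For the 6 loops at 0 in both hypoxia groups such an estimate depends on the prior count and is not given.

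The lowest loops varied together across libraries, as a description over 12 libraries that share depth and the conditions the loops were chosen on. The correlation of log2 CPM with the ITGA4 loop was 0.997 for ASCC2, 0.989 for HLA-DRB1, 0.986 for CBFB, 0.982 for NF1 and 0.977 for EZR, and was lower for ATRNL1 (0.957) and SNX25 (0.892). Over all 28 pairs of lowest loops r ranged from 0.840 to 0.997, from 0.834 to 0.998 without normoxia replicates 3 and from 0.832 to 0.997 without the third LN229 hypoxia library. The most alike circRNAs of other hosts were loops of PMS1 (r = 0.932), FBXW7 (0.873), XPO1 (0.867), CD109 (0.832) and HIBADH (0.825), and the median over the 243 other tested circRNAs was -0.04. Unlike the 6 loops, that of PMS1, a mismatch repair gene, kept 33 reads in hypoxia beside 85 in normoxia.

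The shared pattern also crossed the labelled groups. In normoxia the 6 loops (ITGA4, NF1, CBFB, HLA-DRB1, EZR and ASCC2) together had 78, 70 and 0 reads in LN229 and 95, 77 and 33 in T98G, or 1.38%, 1.47%, 0%, 1.83%, 1.79% and 0.549% of junction reads. The most abundant circRNA of the table, a loop of CYP24A1, the enzyme that inactivates vitamin D, ran the other way in most libraries. It made up 24.6% of reads in the third LN229 normoxia library and 11.2% in the third of T98G, and at most 0.0419% in the other 4 normoxia libraries. In hypoxia it made up 22.5%, 5.61% and 0.0177% in LN229 and 18.0% to 21.4% in T98G. The third LN229 hypoxia library had 1 CYP24A1 read and still none of the 6 loops. The part of whatever sets these libraries apart in the hypoxia difference was not tested.

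**Figure D5:**
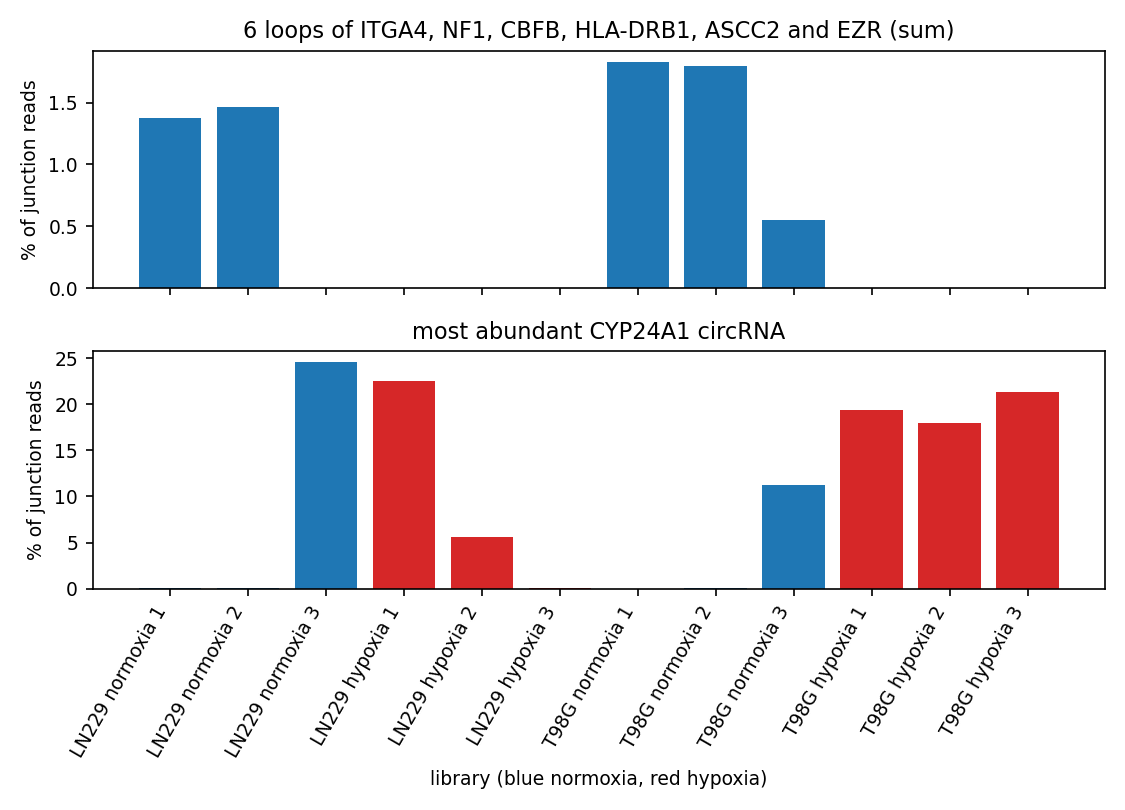
Share of all junction reads (percent, axes starting at 0) in each library for the sum of the 6 loops with no hypoxia read (upper panel) and for the most abundant CYP24A1 circRNA (lower panel), with normoxia in blue and hypoxia in red. The 6 loops are at 0 in the third LN229 normoxia library, where CYP24A1 is at 24.6%, and the third LN229 hypoxia library is near 0 for both.

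Loops with this pattern were not limited to the 8 hosts. A read in each of the 5 normoxia libraries other than the third of LN229, and none in the remaining 7 libraries, was found for 28 circRNAs of the whole table. Of these, 8 belong to the hosts described here (the 6 loops and the ATRNL1 loops of exons 2 to 7 and 22 to 24), and 21 are unlisted. The pattern was taken from the libraries in which the 6 loops had reads, so their place among the 28 was fixed in advance. The share of unlisted circRNAs over the whole table was not counted, so nothing is read from the numbers of unlisted loops given here. Below the filter they include 2 unlisted loops of DSN1, a kinetochore gene, with 25 and 23 reads, and 1 of SIPA1L3 with 23. They also include an intronic loop under HLA-DRB5 with 14 reads that shares its upper end, 32548633, with the HLA-DRB1 loop. Of 207 circRNAs with at least 20 reads in normoxia, 11 had none in hypoxia, 7 of them from the 8 hosts and 10 of them unlisted, whereas none of 212 with at least 20 reads in hypoxia had none in normoxia. The difference between the directions depended on this minimum. With at least 10 reads it was 25 of 574 against 6 of 567. With at least 5 reads it was nearly even, 125 of 1525 (8.20%) against 121 of 1622 (7.46%). Reads of the third normoxia libraries, which correlated with T98G hypoxia, counted here as normoxia reads. The directions were not counted again without those libraries. In the averaged fit without them, 30 circRNAs were called higher in hypoxia and 21 lower.

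Genes that work with the hosts mostly gave few junction reads, and no loop on these lists passed the averaged test. Among 23 integrin and adhesion partners of ITGA4, 7 had reads, 178 in normoxia and 193 in hypoxia. PTK2, focal adhesion kinase, had 153 and 181 of these. All 4 tested loops on the list were of PTK2, with a median log2 fold change of 0.37 beside 0.04 over all tested. ITGB8, another integrin subunit, had 13 reads in normoxia and 0 in hypoxia, and ITGB5 had 4 and 8. Of 16 Ras regulators beside NF1, 8 had reads, 36 in normoxia and 40 in hypoxia. The Ras GTPase-activating genes RASA1, RASA2 and RASA3 had 7 and 8, 8 and 11, and 8 and 5 reads, and BRAF, a kinase downstream of Ras, had 9 and 7. Partners of CBFB had 8 and 4 reads, and the ASCC complex beside ASCC2 had 14 and 16, of which ASCC3, its helicase, had 11 and 9. ERM family genes and partners of EZR had 18 and 21, of which CD44, a membrane partner of ezrin, had 8 and 4. Attractin family genes had 2 and 6.

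Class II MHC genes beside HLA-DRB1 had reads for 1 of 12 genes. HLA-DRB5 had 2, 3 and 0 normoxia reads in LN229, 9, 4 and 2 in T98G, and 0 hypoxia reads, the same libraries as the HLA-DRB1 loop whose span reaches into it. HLA-DRA and CD74, which class II antigen presentation needs, had no junction read. Immune and blood cell genes as hosts had reads for 6 of 27 genes, 5 reads in normoxia and 34 in hypoxia, of which FYB had 3 and 28, and PTPRC and IKZF1 had none. Summed over the list, libraries held 0 to 2 such reads in normoxia of either line, 2 to 6 in LN229 hypoxia and 2 to 11 in T98G hypoxia, and their part in the results was not tested. Sorting nexins beside SNX25 had 175 reads in normoxia and 125 in hypoxia. By gene, these were 92 and 42 for SNX13, 26 and 19 for SNX5, 9 and 27 for SNX6, 18 and 13 for SNX14, and 25 and 22 for SNX27. The 2 tested, both of SNX13, had log2 fold changes of -0.89 (SE 0.59) and -0.84 (SE 0.57), and neither passed.

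The promoters of the hosts were searched for ACGTG, the core of the hypoxia response element, on either strand from 250 bases before to 50 after the RefSeq gene start (GRCh38.p14). Of 7 hosts in the promoter table, 1 (ATRNL1) held it, and 21.4% of all 35116 promoters did. This window and these letters describe the sequence only, and CBFB was not in the table.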

How the data were processed

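Raw back-splice junction counts per circRNA and library, deposited by the authors as whole numbers, were used for 12 libraries. Predicted loop lengths, a further column of other values the authors deposited, were used only to match exons. RNA was isolated with TRIzol and depleted of rRNA with Ribo-Zero, per the labels' protocols, with no digestion of linear RNA named there. No source used here gives the duration of hypoxia. CASAVA 1.8, BWA and hg19 are named in the submitters' processing notes without roles. No source used here names the circRNA caller or its settings. A further 12 columns of log2 values per library were not used. Entries without a host name (18) stayed in the library totals.

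Counts were tested in edgeR 4.0.16 (R 4.3.3, limma 3.58.1) by two-sided quasi-likelihood F tests with TMM scaling and Benjamini-Hochberg adjustment at 0.05, over 244 circRNAs of 205 hosts with at least 5 reads in 3 libraries. 1 fit held a mean per group (common dispersion 0.261, a coefficient of variation of 0.511). 1 read was worth 146 to 203 CPM. Ratios have exact counting intervals. Steps were tested on simulated counts. Correlations used log2 CPM with a prior count of 2. DESeq2 1.42.0 and other alternatives were tried.

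The hosts, gene lists, filters and tests were chosen with earlier results of these data known. Named loops are the lowest loop per host, its 3 other loops with the most reads and those sharing an end with it, the 5 circRNAs most like the ITGA4 loop, and list genes with at least 10 reads. CBFB partners were RUNX1, RUNX2, RUNX3, RUNX1T1 and KMT2A. Same-numbered normoxia libraries of both lines deviated together (r 0.462, 0.390 and 0.674), and 6 of 6 correlated best with their own number. The third library stood apart in both lines, which can by itself raise r for the first and second. Whether the numbers mark paired libraries was not tested further. With the number as a block, line differences in normoxia ran from 0.45 (SE 0.73) for NF1 to 1.27 (SE 1.15) for EZR, again with 0 calls. Within a line the numbers did not pair hypoxia with normoxia, since 0 of 6 libraries correlated best with their own number in LN229 and in T98G. Between LN229 normoxia and T98G hypoxia 5 of 6 did, although same-numbered libraries correlated at only 0.0367 to 0.0583. Where nothing says that libraries came from separate cultures, p-values measure only the spread between these libraries, which may be technical.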

Additional observations from a re-analysis of the deposited data

How the results depend on the processing

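The averaged log2 fold changes of the 8 lowest loops stayed below 0 in every setting in which the loop passed the filter. Of their values, 141 moved by less than 1 SE. The 1 that moved further was ATRNL1 at -4.78 without the first LN229 hypoxia library. The loops were chosen on this change, and 6 of them had no hypoxia read, so the sign for these 6 was fixed in advance. The loops of HLA-DRB1, ASCC2, EZR and SNX25 failed the filter of at least 10 reads in 3 libraries. Those of EZR and SNX25 fell below the filter of 5 reads without the first normoxia library of LN229, or without the first or second of T98G. ITGA4 ranged from -7.98 to -6.93, EZR from -5.57 to -4.49 and SNX25 from -2.62 to -1.99. The number of circRNAs called was less stable. Against 10 lower and 0 higher, there were 6 with RLE size factors, 20 without a filter (17 lower), 4 with at least 10 reads in 3 libraries, and 16 for reads summed per host (13 lower). Without normoxia replicate 3 of both lines 51 were called (21 lower and 30 higher). Leaving out 1 library gave 4 (without the first normoxia library of LN229 or of T98G) to 41 (without the third LN229 normoxia library). It gave 17 without the third T98G normoxia library, 5 without the third LN229 hypoxia library, and moved the count by over 1.5 times for each of the 12 libraries. The replicate block gave 10 calls (8 lower and 2 higher, so not all the same ones) and no call in the other contrasts. Between normoxia and hypoxia of LN229, same-numbered libraries correlated at -0.545 to 0.0607, and 0 of 6 libraries correlated best with their own number, so there only the number is shared.

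Without a filter the response difference gave 1 call. Without normoxia replicate 3 of both lines the line difference of NF1 was -0.41. Leaving out 1 library moved it from -0.56 to 0.90 for NF1, -0.31 to 0.97 for CBFB, -0.066 to 1.17 for HLA-DRB1, -0.053 to 1.15 for ASCC2 and -0.27 to 0.88 for ATRNL1, whose response difference ran from -0.0074 to 2.37. None of these passed, and the cause was not tested. The other loops' share in normoxia was 45.7% without those of ATRNL1. At 27 to 138 reads per loop with no hypoxia read, depth limits the fold bounds.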
